A study of Mus musculus with 22 samples.

Results

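This account follows 7 transcription factor genes, Spi1, Spib, Gfi1, Gfi1b, Irf8, Irf4 and Zeb2, out of 47311 genes quantified in 22 mouse bone marrow libraries. They were chosen by name, as factors of myeloid fate choice. For each gene the TPM (a level corrected for transcript length and scaled to the same total in every library) and the estimated counts of all its transcripts were summed in every library, and 2 ratios, Gfi1 to Irf8 and Gfi1b to Spi1, were formed per library.

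PU.1, the product of Spi1, is an ETS factor that myeloid and B-lymphoid development depend on, and SPI-B, the product of Spib, is its close relative in B cells and plasmacytoid dendritic cells. GFI1 and GFI1B are zinc finger repressors with a shared SNAG domain that recruits the demethylase LSD1 and CoREST; GFI1 is needed for neutrophil development, and GFI1B for erythroid and megakaryocytic development. IRF8 and IRF4 are interferon regulatory factors that bind DNA together with PU.1 or SPI-B. IRF8 drives the monocyte and dendritic branch and GFI1 opposes it in the neutrophil branch, and ZEB2 is a repressor known from monocyte and plasmacytoid dendritic cell development.

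All animals were labelled C57BL/6 and had both Arid1a alleles floxed around exon 9, from a floxed line backcrossed to that strain. KO mice (Arid1a f/f;Mx1-Cre+) carried the interferon-inducible Mx1-Cre transgene and WT mice were littermates of the same sex without it (Arid1a f/f;Mx1-Cre-). Both genotypes received poly(I:C), 5 doses of 300 µg at 8 to 14 weeks of age, so the WT cells shared this treatment, and cells were sorted 4 weeks later. Mx1-Cre acts in any interferon-responsive cell and is not restricted to blood precursors. Common myeloid precursors (CMP, CD34+ with low FcγRII/III), granulocyte-monocyte precursors (GMP, CD34+ with high FcγRII/III) and megakaryocyte-erythrocyte precursors (MEP, negative for both) came from 3 WT mice (300, 305 and 309) and 3 KO mice (301, 304 and 308), and each mouse gave all 3 populations. Long-term hematopoietic stem cells (LT-HSC, the CD34-Flt3- part of the Lin-Sca1+Kit+ cells) came from 2 WT (S245 and S269) and 2 KO samples (S244 and S270) and their cDNA was made with another kit, so a difference between LT-HSCs and precursors cannot be told apart from the kit and was not tested.

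Estimated counts per library ranged from 40804031 to 65930737. Arid1a itself, the targeted gene, had a lower mean in KO in every population (80.7 TPM in WT against 74.4 TPM in KO CMP, 65.5 against 44.8 in GMP, 52.8 against 48.2 in MEP and 26.8 against 10.8 in LT-HSC). The decrease passed in edgeR in CMP, GMP and MEP (adjusted p = 0.028, 0.025 and 0.084) and not in LT-HSC (0.42), and the TPM ranges overlapped in CMP and MEP. These sums run over whole transcripts and do not isolate exon 9. The WT GMP and MEP libraries carried their defining markers: Mpo had a mean of 16560 TPM in WT GMP against 18.4 TPM in WT MEP, and Epor 180.2 TPM in WT MEP against 1.49 TPM in WT GMP. In KO CMP Mpo had a mean of 1135 TPM against 2757 TPM in WT CMP, and Epor 79.6 against 31.1 TPM, while Car1 had 718 against 712 TPM. Cd34 had 183 TPM in KO GMP against 280.5 TPM in WT GMP, and 409.5 against 440 TPM in CMP. The paper reports reduced surface CD34 on KO CMP and GMP. Whether the KO and WT gates held equivalent cells was not tested. The LT-HSC libraries carried the stem cell genes Procr (119 to 162 TPM in WT and 59.9 to 70.6 TPM in KO) and Mecom. Hlf had means of 134 TPM in WT and 79.2 TPM in KO, whereas Slamf1 had 15.2 and 31.0 TPM. They also carried the erythroid gene Car1 (1015 and 2103 TPM in WT, 617 and 537 TPM in KO). Mpo was 2.78 TPM in WT sample S245 and 407 TPM in WT sample S269. S245, with the lowest total, had 27191 genes with at least 10 counts, against 18504 to 22407 in the other LT-HSC libraries. Values of LT-HSC are therefore given for each library.

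The 7 genes lie on 5 chromosomes of GRCm38. Spi1 (ENSMUSG00000002111) spans chr2:91082390-91115756 on the plus strand, Gfi1b (ENSMUSG00000026815) chr2:28609450-28621982 on the minus strand and Zeb2 (ENSMUSG00000026872) chr2:44983632-45117395 on the minus strand. Gfi1 (ENSMUSG00000029275) spans chr5:107716657-107726036 on the minus strand and Spib (ENSMUSG00000008193) chr7:44525993-44532071 on the minus strand. Irf8 (ENSMUSG00000041515) spans chr8:120736358-120756694 and Irf4 (ENSMUSG00000021356) chr13:30749226-30766976, both on the plus strand. Gfi1 and Zeb2 each overlap an annotated RNA on the opposite strand (A430072P03Rik and Zeb2os, at most 10.2 and 14.1 TPM in any library), and Irf8 lies within the same-strand model Gm20388 (at most 11.6 TPM), so reads of shared exons could have been divided between them.

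Gfi1b, Irf8 and Zeb2, the 3 members that were lower in KO GMP, are shown by the 250 bases before their start (RefSeq, GRCm38.p6, strand of the gene). The windows are chr2:28621983-28622232 (minus) for Gfi1b, chr8:120736108-120736357 (plus) for Irf8 and chr2:45117443-45117692 (minus) for the outermost of 4 Zeb2 starts; capitals mark letters that match the GFI core AAATC, the PU.1 core GAGGAA or the C/EBP half-palindrome TTGCNNAA on either strand.
Gfi1b: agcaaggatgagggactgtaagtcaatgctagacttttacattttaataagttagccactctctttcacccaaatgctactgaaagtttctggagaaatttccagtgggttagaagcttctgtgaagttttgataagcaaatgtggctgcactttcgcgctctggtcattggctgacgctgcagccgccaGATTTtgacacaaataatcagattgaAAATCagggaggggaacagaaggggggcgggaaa
Irf8: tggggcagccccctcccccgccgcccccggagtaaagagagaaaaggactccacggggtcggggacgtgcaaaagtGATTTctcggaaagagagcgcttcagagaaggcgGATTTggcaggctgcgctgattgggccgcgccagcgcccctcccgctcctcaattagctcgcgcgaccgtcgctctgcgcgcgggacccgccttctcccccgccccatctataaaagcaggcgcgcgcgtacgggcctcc
Zeb2: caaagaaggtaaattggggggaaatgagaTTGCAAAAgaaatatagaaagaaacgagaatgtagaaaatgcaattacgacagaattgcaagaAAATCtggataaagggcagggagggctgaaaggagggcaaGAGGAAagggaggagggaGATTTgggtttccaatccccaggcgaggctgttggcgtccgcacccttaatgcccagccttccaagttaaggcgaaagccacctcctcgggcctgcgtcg
The GFI core was found in each of these windows, in 2 places apiece, and it is held by 32.7% of the 32807 promoter windows of the same length in the table. Zeb2 also held GAGGAA (23.3% of all windows) and TTGCNNAA (9.57%), with no overlap between the matches. Windows were matched by symbol for 6 members, 11 windows in all. The window of Spib held AAATC in 3 places and TTGCNNAA in 1, that of Irf4 held GAGGAA, and of the 2 windows of Gfi1 the outer held TTGCNNAA. AGATAA, the interferon-type GAAA repeat with a 2-base gap, the ETS-IRF composite element (which can share letters with GAGGAA) and the RUNX word TGTGGT were in none of the 11, against 9.99%, 2.97%, 2.30% and 14% of all windows. These are matches of letters only.

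In WT cells the TPM of Gfi1b, Gfi1 and Spi1 separated all 3 precursor populations, whereas Irf8, Zeb2 and Spib overlapped between CMP and GMP. Irf4 did not overlap between populations either, but its values were close to 0. Gfi1b was the MEP factor, with 268, 291 and 285 TPM in WT MEP (mice 300, 305 and 309), 72.1, 91.5 and 61.1 TPM in WT CMP and 6.87, 8.0 and 8.12 TPM in WT GMP. No library of one population overlapped another. Gfi1 ran the other way, with 146, 149 and 128 TPM in WT GMP, 20.8, 17.5 and 15.1 TPM in WT CMP and 0.70, 0.235 and 0.308 TPM in WT MEP.

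Spi1 was highest in GMP (220.1, 201 and 200.3 TPM), lower in CMP (109, 119 and 136 TPM) and between 2.92 and 4.86 TPM in MEP. Irf8 had its highest mean in CMP (103, 194 and 239 TPM), with 59.6, 125 and 101 TPM in GMP and 0.696 to 1.82 TPM in MEP. The CMP and GMP ranges of Irf8 overlapped, and in both populations mouse 300 had the lowest value. Zeb2 had 63.9, 49.8 and 55.8 TPM in CMP, 46.7, 57.1 and 49.0 TPM in GMP and 15.9 to 18.8 TPM in MEP. Spib (0.149 to 0.645 TPM) and Irf4 (0.00661 to 0.133 TPM, 1 to 20 estimated counts) were close to 0 in WT precursors.

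**Figure D1:**
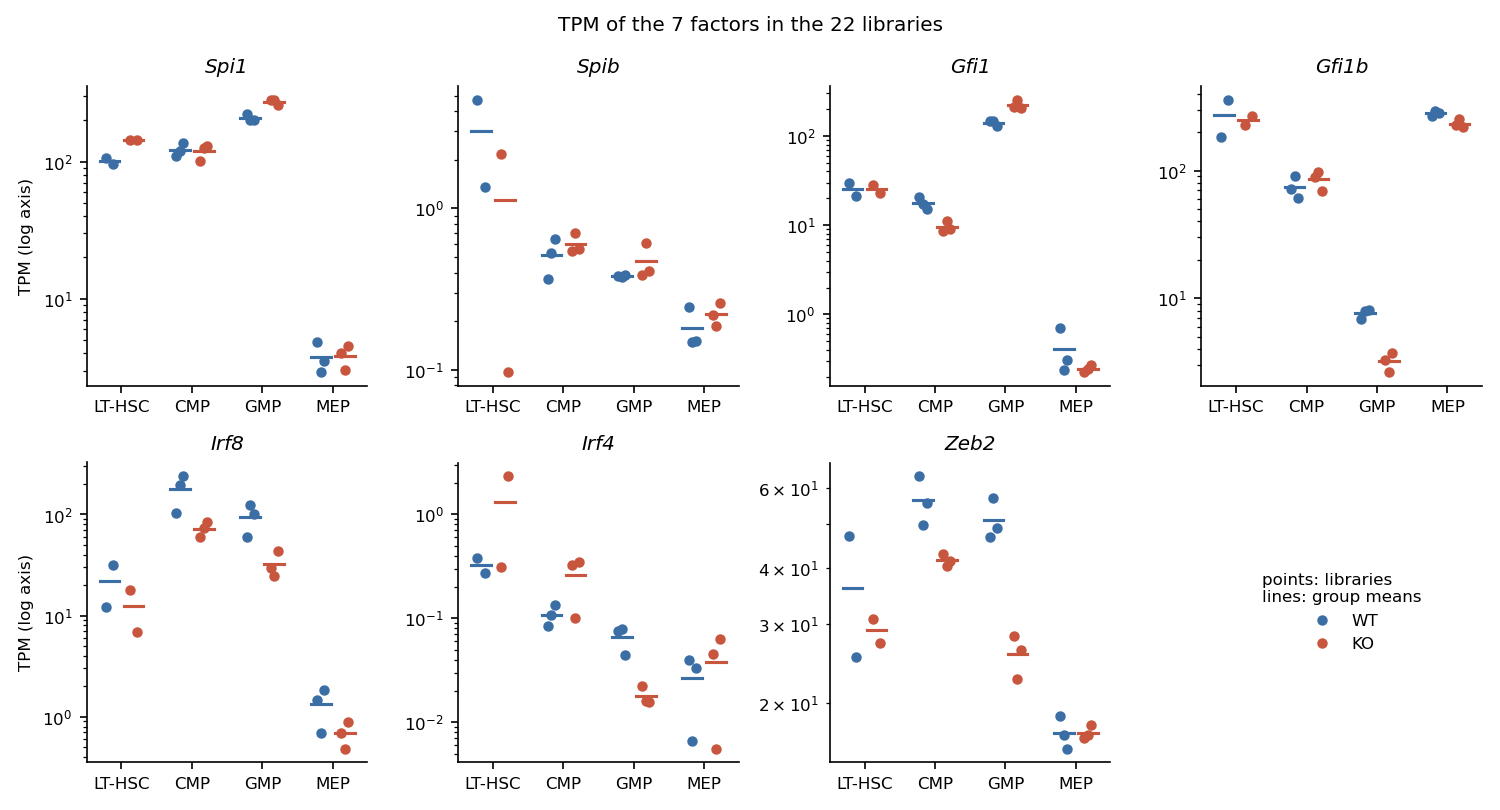
Levels in TPM (log axis, one panel per gene with its own range) of the 7 factors in LT-HSC, CMP, GMP and MEP; each point is a library, blue WT and red KO, and each short line is the group mean. Among the precursors Spi1 and Gfi1 sit highest in GMP and above WT in KO GMP, Gfi1b sits highest in MEP, and Irf8 is lower in KO than in WT CMP and GMP.

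The WT populations were compared in edgeR's quasi-likelihood test with the mouse as a block and Benjamini-Hochberg adjustment over all genes, at a false discovery rate (FDR) of 0.1; log2 fold changes are of estimated counts. Against CMP, GMP had 4 of 7 members past the threshold (45.3% of all genes tested were). Gfi1 rose by 3.17 (SE 0.08, adjusted p = 5.6e-08) and Spi1 by 0.96 (SE 0.17, adjusted p = 0.0019), while Gfi1b fell by 3.31 (SE 0.10, adjusted p = 1.5e-07) and Irf8 fell by 0.74 (SE 0.22, adjusted p = 0.027). The call of Irf8 was lost in DESeq2 (adjusted p = 0.19) and without mouse 309 (adjusted p = 0.29). Zeb2 differed by -0.06 (SE 0.08, adjusted p = 0.57, and 0.045 without mouse 305), and Spib and Irf4 did not pass either.

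Between MEP and CMP of WT mice, 7 of 7 members passed (72.4% of all genes did). Gfi1b was 2.16 higher in MEP (SE 0.09), and the other 6 were lower, from Irf8 at -6.95 (SE 0.31), Gfi1 at -5.09 (SE 0.12) and Spi1 at -4.55 (SE 0.20) to Irf4 at -1.67, Zeb2 at -1.62 and Spib at -1.16. The call of Irf4 was lost without mouse 305 or 309 (adjusted p up to 0.12). Between GMP and MEP of WT mice, 6 passed against 72.6% of all genes. The difference reached 8.25 for Gfi1 (SE 0.12) and 6.21 for Irf8 (SE 0.30) in favour of GMP, and -5.47 for Gfi1b (SE 0.11); Irf4, at 1.14 with an adjusted p of 0.12, did not pass (0.094 with no block for the mouse), and the call of Spib was lost without mouse 309 (adjusted p = 0.13). Since most genes differed between these populations, the count of members is close to the background.

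The same comparisons were made within KO mice. Against KO CMP, KO GMP had 6 of 7 members past the threshold (61.7% of all genes). Gfi1 was 5.08 higher in KO GMP (SE 0.11) and Gfi1b 4.43 lower (log2 fold change -4.43, SE 0.11), Spi1 was 1.70 higher (SE 0.07), and Irf8 (-0.70, SE 0.12), Zeb2 (-0.36, SE 0.05) and Irf4 (-3.32, SE 0.53) were lower. KO MEP differed from KO CMP in 7 of 7 members (71.8% of all genes), with Gfi1b at 1.66 and Irf8 at -6.60. The call of Spib there was lost in DESeq2 (adjusted p = 0.15) and without mouse 304 or 308 (up to 0.43). KO GMP differed from KO MEP in 6 of 7 (72.4% of all genes), with Gfi1 at 9.79, Spi1 at 6.29 and Gfi1b at -6.09. Without mouse 304 Spib lost its call (adjusted p = 0.14) and Irf4 gained 1 (0.092). Whether these steps differed from those in WT mice was tested as the difference of the KO effect, given further on.

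The question of the study was what loss of ARID1A, a subunit of the SWI/SNF chromatin remodeler, does to blood precursors, and the comparison of KO with WT in each population addresses it for these factors. In CMP 3 of 7 members were lower in KO and none was higher, where 23.4% of all genes tested were past the threshold. Irf8 had 59.4, 72.8 and 83.4 TPM in KO CMP (mice 301, 304 and 308) against 103, 194 and 239 TPM in WT CMP. No KO library reached a WT library, and the WT libraries were the more spread. Its log2 fold change was -1.45 (SE 0.28, adjusted p = 0.0078), that is 2.72-fold lower.

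Gfi1 had 8.52, 11.1 and 8.98 TPM in KO CMP against 20.8, 17.5 and 15.1 TPM in WT CMP, again with no overlap. It fell by 0.99 on the log2 scale (SE 0.12, adjusted p = 0.00074), so that the neutrophil factor and the monocyte factor were both lower in KO CMP. Zeb2 had 42.9, 40.4 and 41.5 TPM in KO CMP against 49.8 to 63.9 TPM in WT, a log2 fold change of -0.52 (SE 0.07, adjusted p = 0.00092).

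Spi1 had 101, 125 and 130.3 TPM in KO CMP and 109 to 136 TPM in WT CMP, with overlapping groups (log2 fold change -0.12, SE 0.11, adjusted p = 0.52). With the WT and KO mice paired as a block its log2 fold change was also -0.12 but its adjusted p was 0.068, past the threshold. Gfi1b had 89.5, 97.4 and 69.8 TPM in KO CMP against 61.1 to 91.5 TPM in WT (0.10, SE 0.15, adjusted p = 0.74). Irf4 had 0.326, 0.101 and 0.351 TPM in KO CMP, 19 to 57 estimated counts, against 0.0841 to 0.133 TPM in WT (1.15, SE 0.48, adjusted p = 0.15, and 0.018 without mouse 304), and Spib differed by 0.03 (SE 0.32, adjusted p = 0.97).

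Markers of other cells that use these factors were read in the same CMP libraries. The 8 plasmacytoid dendritic cell markers summed to 132 to 165 TPM in WT and 168 to 213 TPM in KO CMP, and the 11 B cell markers to 31.7 to 36.5 TPM in WT and 24.6 to 32.0 TPM in KO CMP; no marker was at 0 throughout, and 3 and 5 of them were under 1 TPM in every WT library. Cd79b, with means of 27.9 TPM in WT and 20.2 TPM in KO CMP, carried most of the B cell sum. Of the plasmacytoid dendritic cell markers Cox6a2 rose from 4.60 to 26.0 TPM and Runx2 fell from 31.6 to 24.9 TPM. These sums therefore do not stand for their lists as a whole. The 25 monocyte and dendritic precursor genes summed to 1411 to 2043 TPM in WT and 1297 to 1540 TPM in KO CMP. The part of such cells in the lower Irf8 was not tested, and in these bulk samples fewer expressing cells and less RNA per cell cannot be told apart.

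In GMP 5 of the 6 members tested were past the threshold, 2 higher and 3 lower, against 33.9% of all genes. Gfi1 had 214, 255 and 206 TPM in KO GMP against 146, 149 and 128 TPM in WT GMP. It rose by 0.92 (SE 0.12, adjusted p = 0.00047), the opposite direction to CMP. Spi1 had 282, 279 and 256 TPM in KO GMP against 220.1, 201 and 200.3 TPM in WT and rose by 0.60 (SE 0.07, adjusted p = 0.00021). TPM is a share of all transcripts and the fit scales libraries by TMM (a trimmed mean over genes), so the ratio of the mean TPM of Spi1, 272 to 207, need not match its fitted fold change of 1.51.

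Irf8 had 29.7, 24.6 and 43.4 TPM in KO GMP against 59.6, 125 and 101 TPM in WT GMP. All 3 KO values were below the lowest WT value, that of mouse 300, and the log2 fold change was -1.37 (SE 0.26, adjusted p = 0.0040), or 2.58-fold lower. Zeb2 had 28.2, 22.6 and 26.3 TPM in KO GMP against 46.7, 57.1 and 49.0 TPM in WT and fell by 0.82 (SE 0.07, adjusted p = 3.6e-05), the smallest adjusted p among the members in this comparison. Gfi1b, already low in GMP, had 3.31, 2.63 and 3.73 TPM in KO against 6.87, 8.0 and 8.12 TPM in WT, a log2 fold change of -1.04 (SE 0.14, adjusted p = 0.00062).

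Spib, with 0.388, 0.613 and 0.409 TPM in KO GMP against 0.374 to 0.386 TPM in WT, differed by 0.30 (SE 0.27, adjusted p = 0.47). Irf4 did not pass the filter on low counts, with 3 or 4 estimated counts in each KO GMP library and 8 to 15 in each WT library. Where it was tested it was lower in KO, with adjusted p of 0.096 with no filter (log2 fold change -1.70) and 0.070, 0.089, 0.103 and 0.040 without mouse 301, 304, 308 and 309, so that all but 1 of these settings called it. The basophil, mast cell and eosinophil markers moved in these libraries too: the 9 markers summed to 4883 to 9872 TPM in WT GMP and 1397 to 2325 TPM in KO GMP, with none at 0. Prss34 (means of 260 TPM in WT and 7.91 TPM in KO GMP) and Mcpt8 (301 and 48.4 TPM) were a small part of these sums. The part of cells with these markers in the lower Gfi1b was not tested.

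In MEP 1 of the 6 members tested passed, against 29.4% of all genes. Gfi1b had 226, 253 and 219 TPM in KO MEP against 268, 291 and 285 TPM in WT MEP, with no overlap, and fell by 0.37 (SE 0.07, adjusted p = 0.0056). Irf8 had 0.684, 0.482 and 0.887 TPM in KO MEP against 1.47, 0.696 and 1.82 TPM in WT, with WT mouse 305 inside the KO range. Its log2 fold change of -0.94 (SE 0.37) had an adjusted p of 0.11, which was 0.083 without the filter on low counts and 0.072 in DESeq2; it also passed with the block, and without mouse 305 or 308. Zeb2 differed by -0.07 (SE 0.05, adjusted p = 0.43), Spi1 by -0.12 (SE 0.25, adjusted p = 0.77), Gfi1 by -0.57 (SE 0.35, adjusted p = 0.29) and Spib by 0.44 (SE 0.31, adjusted p = 0.38).

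In LT-HSC none of the 7 members passed at an FDR of 0.1 in edgeR or in DESeq2, where 0.0792% of all genes did in edgeR; at an unadjusted p under 0.05, edgeR had 1 member, Spi1, and 5.19% of all genes. Spi1 had 143 and 144 TPM in KO (S244 and S270) against 106 and 95.9 TPM in WT (S245 and S269), with no overlap and a log2 fold change of 0.79 (SE 0.29, adjusted p = 0.88). Gfi1b had 229 and 266 TPM in KO against 182 and 360 TPM in WT. Gfi1 had 28.5 and 22.9 TPM in KO against 29.3 and 21.3 TPM in WT.

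Irf8 had 17.98 and 6.87 TPM in KO LT-HSC against 12.2 and 31.9 TPM in WT (-0.75, SE 0.51, adjusted p = 0.88), and Zeb2 had 30.8 and 27.3 TPM against 47.0 and 25.3 TPM. Spib had 2.17 and 0.0963 TPM in KO against 4.73 and 1.35 TPM in WT, and Irf4 0.313 and 2.33 TPM against 0.381 and 0.271 TPM. The groups of these 4 genes overlapped, and for Spib and Irf4 sample S270 stood far from S244. In S270 the 9 basophil, mast cell and eosinophil markers summed to 3278 TPM, against 47.6 to 231 TPM in the other LT-HSC libraries. Cpa3, Prss34 and Mcpt8 had 14.7, 7.76 and 3.08 TPM in S270, so other markers of the list carried most of that sum. The part of cells with these markers in the Irf4 value was not tested. Without WT sample S269, the fit called Spi1 (0.83, adjusted p = 0.018) and Gfi1b (0.73, adjusted p = 0.035), and without S245 it called Irf8 (-1.49, adjusted p = 0.019), so that 1 library decided each of these calls. In each of them 1 WT sample remained, which is assumed to vary like the KO samples.

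**Figure D2:**
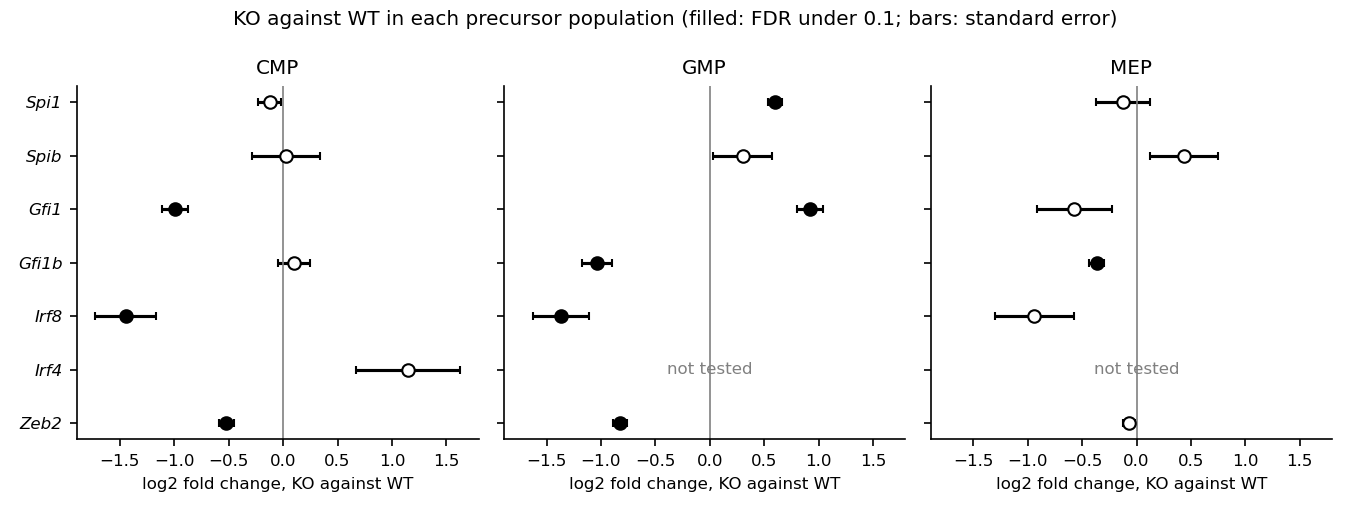
Log2 fold change of KO against WT (x axis) of each factor in CMP, GMP and MEP, with bars of 1 standard error; filled points are past an FDR of 0.1 and open points are not. Irf8 and Zeb2 lie to the left in CMP and GMP, whereas Gfi1 lies at -0.99 in CMP and at 0.92 in GMP.

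The difference of the KO effect between populations came from a genotype-by-population term fitted to all 18 precursor libraries, blocked by mouse. From CMP to GMP 5 of 7 members differed (21.0% of all genes). The effect on Gfi1 was 1.91 higher in GMP than in CMP (SE 0.14, adjusted p = 2.6e-06) and that on Spi1 0.74 higher (SE 0.20, adjusted p = 0.020), while that on Gfi1b was lower by -1.13 (SE 0.16, adjusted p = 0.00035). The effect on Zeb2 differed by -0.30 (SE 0.10, adjusted p = 0.059), and not with an offset for transcript length (adjusted p = 0.19) or without mouse 304, 305 or 308 (at most 0.21). Irf4, at -2.78 (adjusted p = 0.026), rested on 3 to 57 estimated counts per library and did not pass without mouse 301 or 308. For Spi1 the adjusted p was 0.11 without mouse 301.

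The effect on Irf8 differed by 0.04 between GMP and CMP (SE 0.28, adjusted p = 0.96), with a decrease in each of them. Between MEP and CMP 2 of 7 members differed (13% of all genes), Zeb2 at 0.45 (SE 0.10, adjusted p = 0.012) and Gfi1b at -0.47 (SE 0.14, adjusted p = 0.051). The call of Gfi1b was lost with a transcript length offset, with no block for the mouse, and without mouse 300, 301, 304 or 309 (adjusted p up to 0.25 over these). Between GMP and MEP 4 of 7 differed (26.8% of all genes). The effect in GMP exceeded that in MEP by 1.49 for Gfi1 (SE 0.27, adjusted p = 0.0015) and by 0.75 for Spi1 (SE 0.23, adjusted p = 0.037), and lay below it for Zeb2 (-0.75, SE 0.10) and Gfi1b (-0.66, SE 0.16, adjusted p = 0.0093). That of Spi1 did not pass with the transcript length offset (adjusted p = 0.14) or without mouse 301 or 304, and the difference was 0.43 without mouse 300. Irf4 passed without mouse 304 alone (adjusted p = 0.077).

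The ratio of Gfi1 to Irf8 set GMP apart from the other precursors in every mouse. WT GMP had ratios of 2.44, 1.19 and 1.27, and KO GMP of 7.21, 10.4 and 4.75, so that every KO library exceeded every WT library. The difference on the log2 scale, with 0.1 TPM added to each level, was 2.19, or 4.58-fold (exact two-sided permutation test, p = 0.1, the smallest that 3 against 3 allows; adjusted p = 0.40 over 8 tests). Both parts contributed, since Gfi1 was higher and Irf8 lower in KO GMP.

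WT CMP had ratios of 0.201, 0.0901 and 0.0632, against 0.143, 0.152 and 0.108 for KO CMP. The groups overlapped and the difference was 0.35 (exact permutation p = 0.60): Irf8 stayed above Gfi1 in each of the 6 CMP libraries. In MEP, where both genes were under 2 TPM, WT ratios ran from 0.169 to 0.476 and KO ratios from 0.303 to 0.505. WT LT-HSC had 2.41 and 0.666, and KO LT-HSC 1.59 and 3.33.

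The ratio of Gfi1b to Spi1 put MEP and GMP at opposite ends. WT MEP had 55.2, 99.7 and 80.3, and KO MEP 56.4, 83.7 and 48.2. In CMP both genes had levels of the same order, with ratios of 0.662, 0.771 and 0.449 in WT and 0.882, 0.779 and 0.535 in KO. WT GMP had 0.0312, 0.0398 and 0.0405 and KO GMP 0.0117, 0.00943 and 0.0146, with no overlap, a log2 difference of -1.63 or 3.09-fold lower (exact permutation p = 0.1, adjusted p = 0.40). The log2 differences were 0.23 in CMP, -0.32 in MEP and -0.56 in LT-HSC, with overlapping groups and exact permutation p of 0.50, 0.50 and 0.67. Within the assumed pairs of WT and KO mice, Gfi1 to Irf8 was higher in KO in 3 of 3 pairs in GMP (by 1.56 to 3.12 on the log2 scale) and in 2 of 3 in CMP and in MEP. Gfi1b to Spi1 was higher in KO in 0 of 3 pairs in GMP (-2.04 to -1.39), 3 of 3 in CMP (0.015 to 0.41) and 1 of 3 in MEP. Where all 3 pairs went 1 way the exact paired permutation p was 0.25, the smallest that 3 pairs allow, and elsewhere it was 0.5. The CMP difference of Gfi1b to Spi1 was 0.0044 without mouse 309 and 0.44 without mouse 308, and that in MEP lay between -0.54 (without mouse 300) and -0.13 (without mouse 305).

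**Figure D3:**
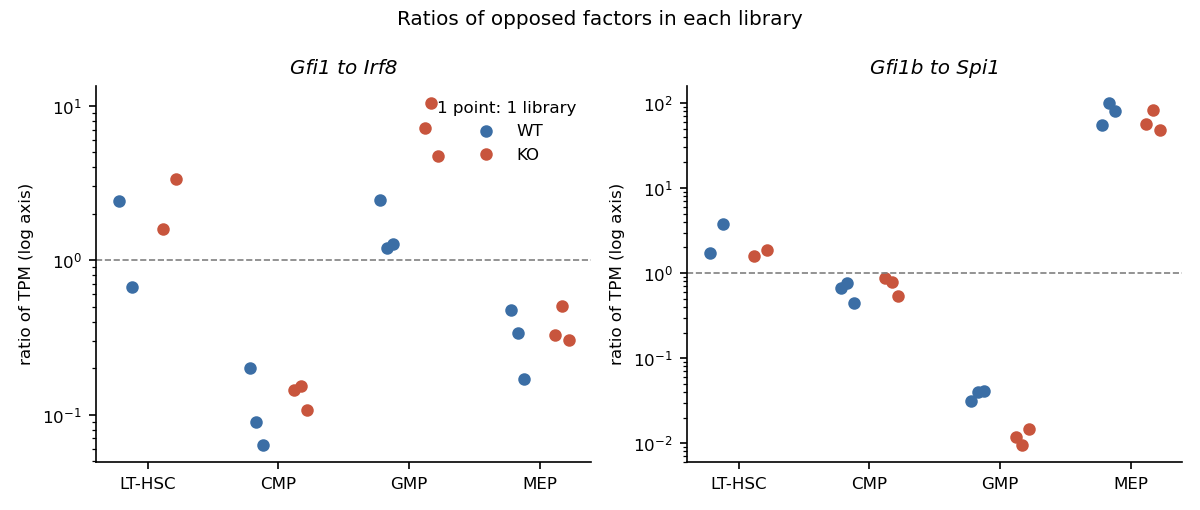
Ratio of TPM (log axis) of Gfi1 to Irf8 (left) and of Gfi1b to Spi1 (right) in every library, blue WT and red KO; the dashed line marks equal levels. In GMP the KO points leave the WT points on both axes, upwards to between 4.75 and 10.4 on the left and downwards to between 0.00943 and 0.0146 on the right.

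Several transcripts of the same gene were quantified, and the shares of the leading ones were close in both genotypes in the populations that follow. The longest coding transcript of Spi1, Spi1-201, held 58.3% of the TPM of the gene in WT GMP and 61.5% in KO GMP. Irf8-201 held 83.6% in WT CMP and 81.5% in KO CMP, and Gfi1b-201 held 59.9% in WT MEP and 57.6% in KO MEP. Zeb2 was divided over 29 transcripts, of which the leading one held 32.6% in WT GMP and 35.5% in KO GMP. In Gfi1 4 coding transcripts shared the signal, and kallisto's split between such overlapping models is an estimate.

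Over the 18 precursor libraries, the genes whose log2(TPM + 1) followed each member most closely were ranked among 13766 genes with a mean of at least 1 TPM, as a description of libraries that share mice and populations. Spi1 was nearest to Fes (r = 0.998), Kcnk12 and Fmnl3. Gfi1 was nearest to Prss57, a serine protease of neutrophil granules (r = 0.996), Igsf6 and 1700020L24Rik. Gfi1b was nearest to Sept8 (r = 0.997), Ldb1 and Gata1, the erythroid master factor (r = 0.995). Irf8 was nearest to Milr1 (r = 0.992), Ly86 and Rasa4, and Zeb2 to Camk2a (r = 0.986), Gm38399 and Sestd1. Spib (Camkk1, 4833407H14Rik and Ms4a4c, r of 0.915 to 0.921) and Irf4 (Ighd, Peak1 and Nupr1l, r of 0.907 to 0.925) were themselves below 1 TPM on average. Among the members, Gfi1 and Gfi1b were opposed (r = -0.97) and Irf8 and Zeb2 ran together (r = 0.94). Gfi1 and Irf8 were positively correlated (r = 0.73) over these libraries, which include MEP, where both were under 2 TPM. Between CMP and GMP they differed in opposite directions, Gfi1 by 3.17 in WT and 5.08 in KO and Irf8 by -0.74 and -0.70. Each of them also ran with Spi1 (r = 0.92 for Gfi1 and 0.91 for Irf8).

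The partners and antagonists of these factors, 22 genes, were read in the same comparisons. In CMP 2 of the 21 tested were higher in KO and 5 lower (23.4% of all genes passed in either direction). In GMP 5 of 22 were higher and 9 lower (33.9% of all genes), and in MEP 1 of 18 was higher and 8 lower (29.4%). The medians were -0.08, -0.10 and -0.28 (the median of all genes was within 0.01 of 0 in each). Gata2, which shares targets with GFI1B and PU.1, fell from 83.1 ± 8.28 to 25.0 ± 2.47 TPM (SD, n = 3 each) in GMP (-1.70, SE 0.11, adjusted p = 1.1e-05), and by 1.84 in MEP (SE 0.11, adjusted p = 2.9e-05). Klf4, a monocyte factor downstream of PU.1, fell by 3.65 in CMP (SE 0.63, adjusted p = 0.0043) and by 1.57 in GMP. Its levels were low, from 2.63 ± 1.87 to 0.21 ± 0.11 TPM in CMP (SD, n = 3 each). Cebpb fell by 1.28 in CMP. Id1, an inhibitor of basic helix-loop-helix factors, rose by 1.77 in CMP and from 8.64 ± 0.727 to 46.9 ± 1.66 TPM (SD, n = 3 each) in GMP (2.60, SE 0.10, adjusted p = 2.7e-06), and Id2 rose by 2.10 in GMP. In MEP Ets1 fell by 1.34 (means of 0.73 TPM in WT and 0.34 TPM in KO) and Nfe2 rose by 0.25.

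Of the 15 family relatives (other ETS, IRF and ZEB genes), 2 were higher and 3 lower in CMP (23.4% of all genes passed). In GMP 3 were higher and 2 lower (33.9% of all genes), a count close to the background. In MEP 2 of the 14 tested were higher and 1 lower (29.4% of all genes). The medians were -0.01, 0.04 and 0.07. Irf7, an interferon-responsive gene, rose by 1.76 in CMP (10.9 ± 4.11 to 38.8 ± 5.33 TPM, SD, n = 3 each; SE 0.26, adjusted p = 0.0019) and by 1.15 in MEP, and Irf9 by 0.57 and 0.47. Spic, the third member of the PU.1 group, fell by 0.67 in CMP and Fli1 fell by 0.39. In GMP Ets2 rose by 0.46 and Elf4 by 0.36, while Erg fell by 0.26 and Etv6 by 0.17.

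In CMP and GMP the median of the neutrophil precursor genes moved in the direction of Gfi1. In KO CMP 1 of 18 was higher and 11 lower (median -1.21), where 23.4% of all genes passed. In KO GMP 13 were higher and 2 lower (median 0.78), where 33.9% of all genes passed. Fcnb, a ficolin of early granulocytes, rose from 16.7 ± 3.55 to 518 ± 194 TPM (SD, n = 3 each) in GMP (5.15, SE 0.28, adjusted p = 5.7e-06), and Lcn2, a granule protein, rose by 2.66. Retnlg (-2.38) and Ltf (-2.11) fell in GMP; Ltf and Cd177 fell by 2.44 and 2.33 in CMP, where Fcnb rose by 1.18. In MEP 3 of 18 were lower and none higher (29.4% of all genes passed), with a median of -1.09, and Ltf (-2.73) and Retnlg (-1.62) led them. In LT-HSC 1 of 18, Csf3r, was lower (-2.09), where 0.0792% of all genes passed. The list median there was -1.25 (-0.16 over all genes), while Gfi1 differed by 0.14 and did not pass.

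The monocyte and dendritic precursor genes were divided. In CMP 2 of 24 were higher and 12 lower (median -0.41), in GMP 11 of 24 higher and 8 lower (median 0.20), and in MEP 2 of 23 higher and 5 lower (median -0.20). Of all genes 23.4%, 33.9% and 29.4% passed there, so the count in MEP was close to the background. The MHC class II gene H2-Aa fell by 3.34 in CMP, by 2.82 in GMP and by 1.69 in MEP. In MEP its means were 0.86 TPM in WT and 0.30 TPM in KO. Cd74, the class II invariant chain, fell by 2.65 in GMP. F13a1, a coagulation factor of monocytes, fell from 116 ± 40.2 to 5.43 ± 1.28 TPM (SD, n = 3 each) in CMP (-4.52, SE 0.31, adjusted p = 5.2e-05). Cx3cr1, the fractalkine receptor, rose by 1.85 in GMP and Cybb, the NADPH oxidase subunit, by 1.71. In CMP Fcgr1 rose by 1.23 (means of 0.20 TPM in WT and 0.45 TPM in KO) and Zbtb46 by 0.79.

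Of 12 genes reported as repressed by GFI1 or GFI1B, 3 were higher and 4 lower in CMP, 3 higher and 5 lower in GMP, and 3 of 11 higher and 2 lower in MEP, with medians of 0.00, 0.06 and 0.26. The shares of all genes past the threshold were 23.4%, 33.9% and 29.4%. Cdkn1a, the cell cycle inhibitor p21, rose in all of these populations (1.32 in CMP, 0.82 in GMP and 3.13 in MEP). Csf1, the macrophage growth factor, fell in the same order (-2.63, -3.41 and -1.14). In MEP its means were 0.34 TPM in WT and 0.15 TPM in KO. Tgfbr3 rose by 0.51 in CMP and 0.60 in MEP, and Bak1 rose by 0.43 in GMP but fell by 0.48 in MEP.

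Erythroid and megakaryocyte genes were higher in 11 of 17 cases and lower in 4 in KO CMP (median 0.80), higher in 9 and lower in 1 in MEP (median 0.43), and 4 in each direction in GMP (median 0.01). In the same order 23.4%, 29.4% and 33.9% of all genes passed. In CMP Cldn13 rose by 2.66 and the blood group gene Rhd by 2.24, while the platelet genes Pf4 and Gp1bb fell by 1.02 and 0.69. In MEP Gp9 rose by 2.08 and Vwf by 1.53, and Car1 fell by 1.09. In GMP Tspo2 rose by 1.35 and Itga2b fell by 0.98.

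The markers of other cells were counted in the same way. The background was 23.4% of all genes for CMP, 29.4% for MEP and 33.9% for GMP. Of the basophil, mast cell and eosinophil markers, 1 of 9 was higher and 5 lower in CMP, none higher and 7 of 9 lower in GMP (median -1.98), and none higher and 3 of 7 lower in MEP. Prss34 fell from 260 ± 117 to 7.91 ± 2.44 TPM (SD, n = 3 each) in GMP (-4.89, SE 0.36, adjusted p = 2.7e-05) and Mcpt8 fell by 2.49. Of the B cell markers 1 of 9 was higher (Blnk, 1.89) and 2 lower in CMP, none of 9 passed in GMP, and 1 of 6 was lower in MEP. Of the plasmacytoid dendritic cell markers 2 of 7 were higher in CMP (Cox6a2, 2.40, and Pacsin1, 1.97) and 1 lower (Runx2, -0.50). In GMP 1 of 5 was lower, and in MEP 1 of 5 each was higher and lower. The B cell counts of GMP and MEP, and the plasmacytoid dendritic cell count of GMP, were below the background. Pacsin1 had means of only 0.10 TPM in WT and 0.39 TPM in KO CMP. Cox6a2 was widely spread in KO CMP (26.0 ± 17.2 TPM, SD, n = 3).

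**Figure D4:**
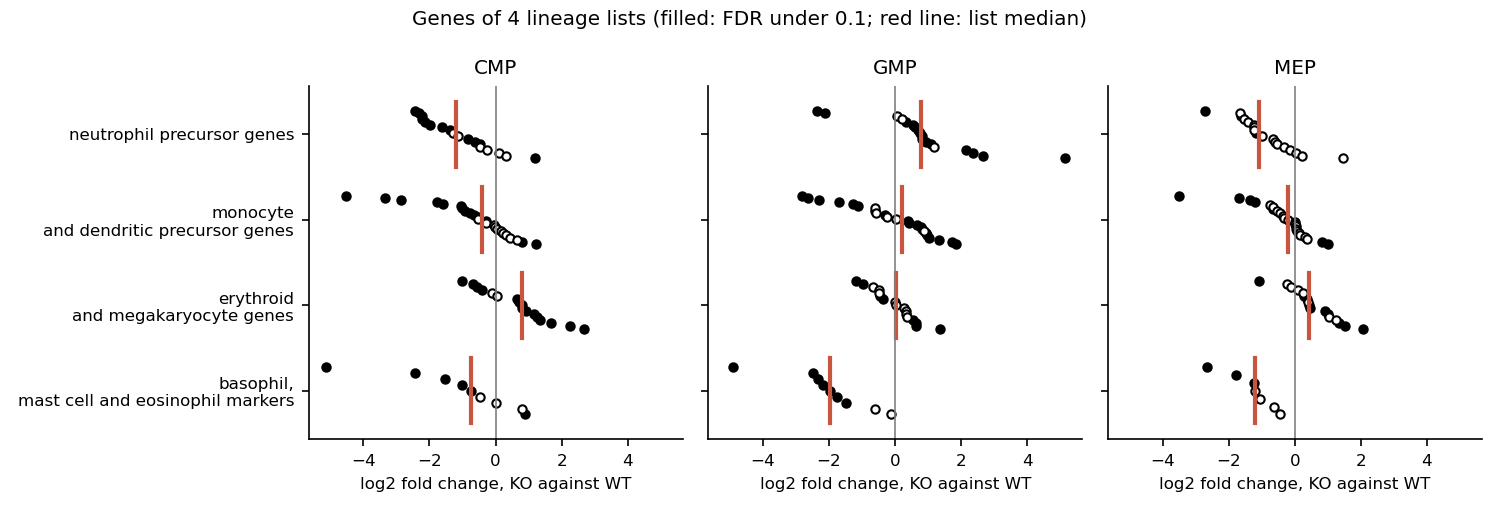
Log2 fold change of KO against WT (x axis) of every tested gene of 4 lineage lists in CMP, GMP and MEP; filled points are past an FDR of 0.1 and the red line is the median of the list. The median of the neutrophil precursor genes lies at -1.21 in CMP and at 0.78 in GMP, and that of the basophil, mast cell and eosinophil markers at -1.98 in GMP.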

How the data were processed

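RNA was measured in 22 libraries (4 LT-HSC and 18 precursor), as the report describes. The authors quantified reads with kallisto on mouse transcripts of mm10 and deposited estimated counts per transcript, which need not be whole, and TPM, which kallisto scales by effective length. The deposited effective lengths served only as an offset. Values were summed per gene through GENCODE vM21 (99.2% of 115088 transcripts matched), and counts were rounded.

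edgeR 4.0.16 in R 4.3.3 fitted all genes (TMM, filterByExpr, quasi-likelihood F-test, Benjamini-Hochberg, FDR 0.1). KO against WT was fitted in each population with genotype alone. Populations were compared within a genotype, and the KO effect between populations, with the mouse as a block. SE was taken as the absolute log2 fold change over the root of F. Ratios were tested by exact two-sided permutation of log2 ratios (0.1 TPM added), adjusted over 8 tests, in scipy 1.17.1; they cannot go below p = 0.1 (3 against 3) or 0.333 (2 against 2). WT and KO mice share no number; pairs follow the column order of the study's supplementary tables. Deviations from group means correlated in each pair by 0.37 to 0.57 in CMP and 0.44 to 0.60 in GMP, but by 0.02 for the lowest pair in MEP. That pair was mice 300 and 301, and in MEP mouse 300 correlated more with mouse 308 (0.33). The same mice gave all 3 populations, so these values do not establish the pairing, and the pairs are assumed. Pairs of samples are separate animals as far as the labels say.

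Totals per library (40804031 to 65930737 estimated counts) set the precision of low genes, and members under 1 TPM rest on few counts. The members and the 9 gene lists were chosen with earlier results of these data known. All 7 members are named; of each list, up to 2 rises and 2 falls per precursor population were named among genes past the FDR with non-overlapping CPM, and 3 genes of highest correlation per member; 1 gene that the rule names is not reported here. Alternatives were DESeq2 1.42.0, median-of-ratios size factors, no filter, a transcript length offset, the block, each sample left out and, for ratios, other pseudocounts and CPM.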

Additional observations from a re-analysis of the deposited data

Results flagged for a closer look

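The effect of KO on several factors differed between precursor populations by the test of the difference itself (edgeR's quasi-likelihood interaction, FDR 0.1, 18 libraries). Between GMP and CMP the log2 difference was 1.91 for Gfi1, 0.74 for Spi1, -1.13 for Gfi1b, -2.78 for Irf4 and -0.30 for Zeb2. Gfi1 was lower in all 3 KO CMP libraries and higher in all 3 KO GMP libraries than in any WT library of the same population. Between MEP and CMP the difference was -0.47 for Gfi1b and 0.45 for Zeb2. Between GMP and MEP it was 1.49 for Gfi1, 0.75 for Spi1, -0.66 for Gfi1b and -0.75 for Zeb2. Irf4 had at most 57 estimated counts in these libraries. With 2 or 3 samples a group, no sample was tested as an outlier.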

How the results depend on the processing

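The calls in KO against WT of Gfi1, Irf8 and Zeb2 in CMP, of Spi1, Gfi1, Gfi1b, Irf8 and Zeb2 in GMP and of Gfi1b in MEP kept their direction and their side of FDR 0.1 under every alternative and without each mouse. In MEP, members called rose from 1 to 2 (Irf8 added) with no filter, in DESeq2 and with the replicate block, and were 1 to 2 without 1 mouse. Genes called in LT-HSC, 18, became 286 with no filter, 204 in DESeq2, 115 with the replicate block and 50 to 2516 without 1 sample, with 0 to 2 members. Members whose KO effect differed between MEP and CMP fell from 2 to 1 with the transcript length offset and with no replicate block (1 to 2 without 1 mouse), and between GMP and CMP from 5 to 3 to 5 without 1 mouse. Without 1 mouse, genes called were 3040 to 5357 in MEP (lowest without 301), 5253 to 8105 for WT GMP against CMP (lowest without 309), 2577 to 3636 for the effect in GMP less CMP (lowest without 309) and 1464 to 2638 for MEP less CMP (lowest without 309). Members not called changed sign as follows, and the cause was not tested. Gfi1b in LT-HSC became 0.00067 with no filter, 0.058 with the length offset and 0.11 with the block; Spib in CMP became -0.012 with the block. With the length offset Spi1 in MEP became 0.0092, Zeb2 in WT GMP against CMP 0.00284, and in the difference of the KO effect Irf8 (GMP less CMP) -0.031, Spi1 (MEP less CMP) 0.11 (0.015 in DESeq2) and Spib (GMP less MEP) 0.19. Leaving out 1 sample gave -0.51 to 0.73 for Gfi1b, -1.49 to 0.19 for Irf8 and -0.48 to 0.45 for Zeb2 in LT-HSC, -0.25 to 0.24 for Spib and -0.048 to 0.24 for Gfi1b in CMP, -0.29 to 0.21 for Spi1 in MEP, -0.35 to 0.00165 for Spib and -0.15 to 0.0063 for Zeb2 in WT GMP against CMP, and, for the difference of the KO effect, -0.12 to 0.26 for Irf8 (GMP less CMP), -0.22 to 0.42 for Spi1 (MEP less CMP), -0.34 to 0.0092 for Spib and -0.77 to 0.082 for Irf8 (GMP less MEP). The log2 ratio of Gfi1 to Irf8 ranged from -0.069 to 1.78 in LT-HSC, -0.012 to 0.82 in CMP and -0.042 to 0.59 in MEP, and Gfi1b to Spi1 from -1.13 to 0.00259 in LT-HSC; in GMP both kept their direction throughout. Where MEP mice and LT-HSC samples are blocked, the numbers do not show a pairing (lowest r of 0.02 in MEP, and 2 pairs in LT-HSC with r = 0.20). Irf4 had at most 57 estimated counts in any precursor library.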
